A study of Caenorhabditis elegans with 16 samples.

Results

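The genes described here build and anchor the contractile apparatus of *Caenorhabditis elegans* muscle: the myosins and paramyosin of the thick filament, actin, tropomyosin and calponin-like proteins of the thin filament, the troponin complex, the giant and immunoglobulin (Ig)-domain proteins, and the attachment proteins of dense bodies and M-lines. They were given as a list of 38 genes and kept where a deposited table listed them. The table that compared fasted with fed worms at 20°C listed 26 of the 38, and the table that compared them after heat shock listed 2, *unc-27* and *atn-1*, which were also among the 26. Together the tables hold 3698 genes, 410 of them in both. The remaining 12 members (*unc-22*, *unc-60*, *unc-89*, *unc-112*, *act-2*, *tni-4*, *tnc-2*, *tnt-4*, *ttn-1*, *deb-1*, *ketn-1* and *dys-1*) were in neither table and were not analysed here.

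Worms were of the wild-type strain N2, fed *E. coli* OP50 and grown at 20°C. RNA from whole animals was sequenced from 4 groups, each with 4 libraries: worms kept under basal conditions (20°C), fed or fasted, and worms given a heat shock (35°C, 30 min), fed or fasted. Fasted worms had been moved to plates without food for 24 h from the mid-L4 stage. The sample labels then give 24 h of recovery for the fasted worms. The study's paper instead has them go straight from the fast to the basal or heat shock treatment, so whether they were refed before collection is uncertain. Whether the libraries of each group are separate cultures is not stated, and if they are not, p-values measure technical spread alone. Depth was 15859001 to 26398842 reads in the libraries at 20°C and 17071113 to 24718844 in those given a heat shock. Where values are given library by library, they stand in the order of replicates 1 to 4.

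In the obliquely striated body wall muscle of the worm, thick filaments of myosin wound around a paramyosin core are held at M-lines, and thin filaments of actin are held at dense bodies. When calcium binds troponin C, the troponin complex lets tropomyosin move on actin so that myosin can bind. Dense bodies and M-lines are tied through the muscle membrane to the basement membrane, so the force of each sarcomere is passed on to the cuticle. Whole-animal RNA mixes this muscle with all other tissues, and a change in the share of muscle cells and a change in RNA per muscle cell cannot be told apart in it.

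Under basal conditions, all 26 listed muscle genes were on average higher in fasted than in fed worms, by 0.39 to 1.38 on the log2 scale, with a median of 0.87. The median over all 2666 genes of that table was 0.57. Those genes include ones lower in fasted worms, as no listed member was, so the gap between the 2 medians mixes direction with size. A gene entered the table only if the authors' comparison of these libraries gave it a p under 0.05 before adjustment, so being listed was decided by the contrast described, and 17.5% of the 14982 genes the authors adjusted over were listed (11% listed and higher in fasted worms). By edgeR's quasi-likelihood test, adjusted over those 14982 genes by Benjamini-Hochberg, 12 of the 38 members were higher in fasted worms at an adjusted p under 0.05 and 0 were lower. Across all genes, 1.92% were called higher and 0.534% lower. With the replicate number as a block, 21 members were called, against 3.69% of all genes called higher, and DESeq2 called 19, against 4.4% of all genes higher and 1.43% lower. Before adjustment, all 26 (68.4% of the 38) had an edgeR p under 0.05. Of all genes, 10.2% did so and were higher and 5.73% did so and were lower. Listing itself required a p under 0.05 on these same libraries. The edgeR p before adjustment therefore nearly repeats the rule of listing and is no separate support. The authors' comparison was itself made with DESeq2. The DESeq2 calls here use the same counts and size factors, so they are no separate support either. Scaling by TMM over the listed genes left 7 members called, with 1.04% of all genes called higher and 1.02% lower. Scaling by DESeq2 size factors over the listed genes left 4, with 0.954% of all genes higher and 4.01% lower. The median of the members lay 0.31 above that of all listed genes with either scaling. A scaling shifts all genes by nearly the same amount, so this gap could hardly change and does not test the scaling. The 3 members *mup-2*, *act-4* and *dim-1* were called in each of the 18 alternative settings.

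The number of calls changed with the library left out. It was 20 without fed replicate 4, 10 without fasted replicate 2, 8 without fasted replicate 3 and 3 without fasted replicate 1. It was 4 without fed replicate 1, fed replicate 2, fed replicate 3 or fasted replicate 4. All 26 genes stayed higher in fasted worms in each of these fits. Listing had required a p under 0.05 on these same libraries, so their direction could hardly change and is no separate support. Calls over all genes changed as well. Of all genes, 2.48% were called higher without fed replicate 4 and 0.487% without fasted replicate 1. The shares were 0.514%, 0.661%, 0.848% and 0.614% without fed replicates 1, 2 and 3 and fasted replicate 4. Without fasted replicate 2 or 3, 220 and 167 genes were called higher, where the main fit called 288. In 16 of the 26 genes every fasted library lay above every fed library, which held for 898 of the 2666 listed genes (33.7%). The listed genes include those lower in fasted worms, which cannot meet this, whereas all 26 muscle genes were higher. Among listed genes that were higher the share is therefore larger than 33.7%, and the 2 shares are not alike. Of the listed genes kept in the adjustment, 1645 were higher. The 898 set against these 1645 come far nearer to the 16 of 26 than 33.7% does. The 16 are therefore not read as a trait of muscle genes.

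**Figure D1:**
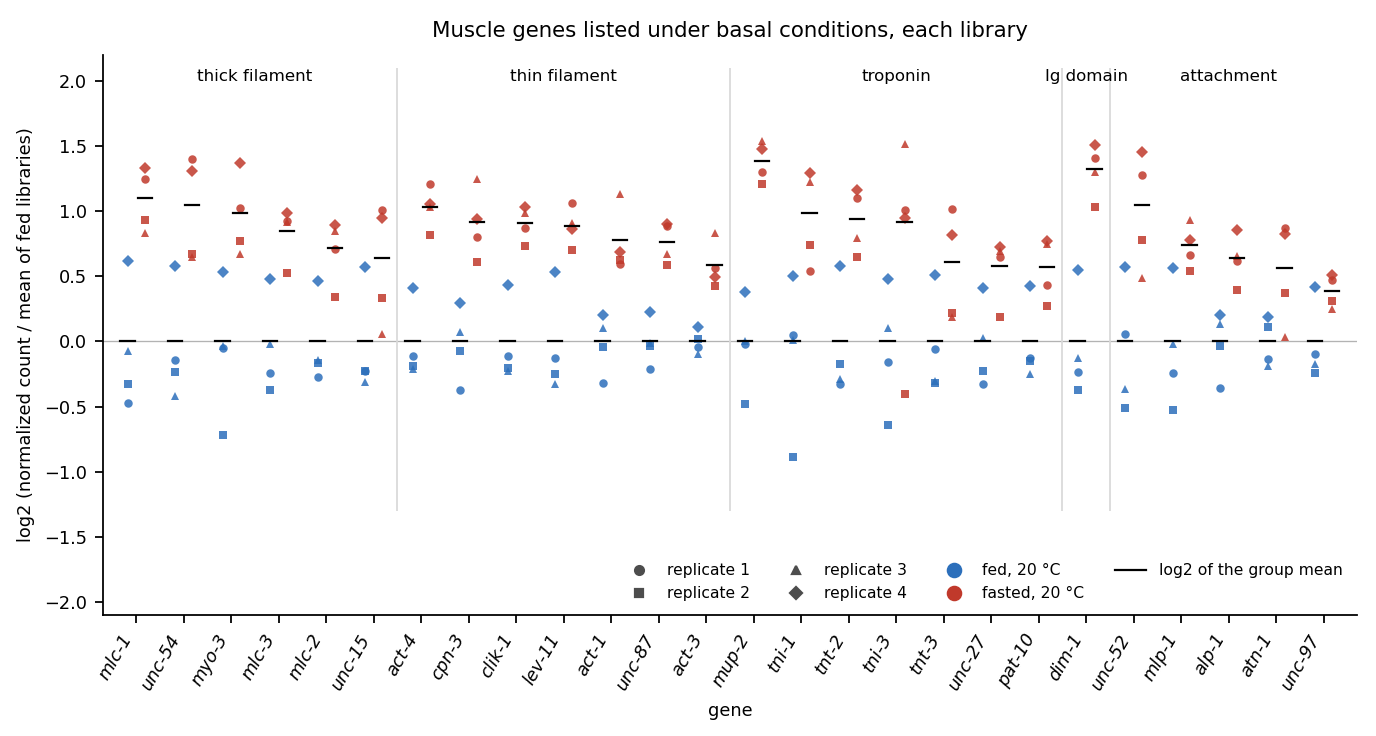
Level of each of the 26 muscle genes in every 20°C library, as log2 of the normalized count over the mean of the 4 fed libraries (y axis), grouped by role (x axis). Marker shapes give the replicate and black bars the log2 of each group mean. Fed replicate 4 is the highest fed library for all 26 genes, and in 16 genes no fasted library reaches down to the fed libraries.

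All 6 members of the thick filament were listed, 2 were called (5 with the replicate block), and their median log2 fold change was 0.92. *unc-54* encodes myosin heavy chain B, the main myosin of body wall muscle. Its normalized counts were 8397, 7901, 6944 and 13889.8 in fed worms and 24503, 14771, 14568 and 23013 in fasted worms. The lowest fasted library lay just above fed replicate 4 and far above the other fed libraries. The log2 fold change was 1.05 ± 0.24 (SE), with an adjusted p of 0.055 that missed the threshold by edgeR and of 0.0073 with the block. The myosin heavy chain A gene *myo-3*, whose product sits in the middle of the thick filament, had normalized counts of 564, 355, 572 and 848 in fed worms and 1186, 999, 932 and 1512 in fasted worms. The groups did not overlap, and its log2 fold change of 0.98 ± 0.25 (SE) had an adjusted p of 0.071 by edgeR and 0.010 with the block. *unc-15*, which encodes paramyosin, overlapped between the groups. Its normalized counts were 4849, 4861, 4589.5 and 8441 in fed worms and 11412, 7167, 5911 and 10929 in fasted worms, so fed replicate 4 lay above fasted replicates 2 and 3. The log2 fold change of *unc-15* was 0.64 ± 0.25 (SE, edgeR adjusted p = 0.24, 0.059 with the block).

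The light chains of myosin were all higher in fasted worms. *mlc-1* and *mlc-2* encode regulatory light chains and lie next to each other on chromosome X, in opposite orientation (bases 17459160 to 17460767 and 17455779 to 17456594 in WBcel235, as the files give them). They are close copies, and reads could have been divided between them by the counting, so the split between the pair is uncertain. Normalized counts of *mlc-1* were 1731, 1921, 2281 and 3686 in fed worms and 5695, 4579.8, 4283 and 6034 in fasted worms, with no overlap and a log2 fold change of 1.10 ± 0.23 (SE, edgeR adjusted p = 0.036). For *mlc-2* they were 3562, 3850.0, 3907 and 5939.7 in fed worms and 7055, 5474, 7765 and 8018 in fasted worms. Here fed replicate 4 exceeded fasted replicate 2, and the log2 fold change of 0.71 ± 0.18 (SE) had an edgeR adjusted p of 0.071, or 0.020 with the block. The essential light chain gene *mlc-3* rose from 3294 ± 916 (SD, n = 4) in fed to 5927 ± 801 (SD, n = 4) in fasted libraries, a log2 fold change of 0.85 ± 0.18 (SE, edgeR adjusted p = 0.043), and its groups did not overlap.

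The thin filament genes were called most completely: each of the 7 listed, of 9 given, passed the test and had no overlap between the groups, though whether this differs from the other roles was not tested. Their log2 fold changes ran from 0.59 to 1.03. *act-4* (chromosome X, bases 4960553 to 4964416), an actin gene, was the most changed of them. Its normalized counts were 8964, 8510.4, 8379 and 12898 in fed worms and 22367, 17090.5, 19785 and 20110.3 in fasted worms. Each fasted library exceeded the highest fed library, fed replicate 4, and the change was 2.05-fold (1.03 ± 0.15 SE on the log2 scale, edgeR adjusted p = 0.0089). The actin genes *act-1* and *act-3* lie close together on chromosome V with *act-2* between them, and *act-2* was not listed. Normalized counts of *act-1* were 2353, 2852, 3153 and 3365 in fed worms and 4419.6, 4519, 6426 and 4720.2 in fasted worms, and those of *act-3* were 4275, 4448, 4117 and 4748 in fed worms and 6490.4, 5890.2, 7820.3 and 6185 in fasted worms. Fasted replicate 3 was the highest library for both. The log2 fold changes were 0.78 ± 0.15 (SE) for *act-1* (edgeR adjusted p = 0.029) and 0.59 ± 0.11 (SE) for *act-3* (edgeR adjusted p = 0.024). Since the worm actin genes are nearly identical in sequence, the counting could have moved reads between them, and the value of any 1 of them is uncertain.

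*lev-11* encodes tropomyosin, which lies along the actin filament. It had normalized counts of 5734, 5278, 4999 and 9049 in fed worms and 13065, 10200.1, 11732 and 11409 in fasted worms, and a log2 fold change of 0.89 ± 0.18 (SE, edgeR adjusted p = 0.036). Fed replicate 4 was the one fed library near the fasted ones. The other 3 genes of the thin filament encode proteins with calponin-like sequence, a family that binds actin. *unc-87* rose from 2816 ± 355 (SD, n = 4) in fed to 4785 ± 517 (SD, n = 4) in fasted libraries, by 0.77 ± 0.12 (SE) on the log2 scale (edgeR adjusted p = 0.013). *clik-1* had normalized counts of 3486, 3283, 3235 and 5103 in fed worms and 6899, 6268, 7469 and 7712 in fasted worms, a rise of 0.91 ± 0.15 (SE) on that scale (edgeR adjusted p = 0.016). *cpn-3* was the shortest of them, at 664 bases, and rose by 0.92 ± 0.17 (SE, edgeR adjusted p = 0.022), from 1975 ± 378 to 3736 ± 714 normalized counts (SD, n = 4).

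The troponin complex has a subunit that binds tropomyosin (T), one that inhibits (I) and one that binds calcium (C). Of 10 troponin genes given, 7 were listed, 2 were called (5 with the block) and 3 had no overlap between the groups. The 3 troponin genes known for expression in the pharynx, *tni-4*, *tnc-2* and *tnt-4*, were not listed. *mup-2* (chromosome X, bases 6408464 to 6410227), the troponin T of body wall muscle, had the largest log2 fold change of the 26 genes. Its normalized counts were 2088, 1514, 2115 and 2744 in fed worms and 5201, 4880.2, 6123 and 5881 in fasted worms. The lowest fasted library was well above the highest fed library, and the change was 2.61-fold (1.38 ± 0.17 SE on the log2 scale, edgeR adjusted p = 0.0035). *tnt-2*, another troponin T gene, had normalized counts of 2141, 2378, 2191 and 4011 in fed worms and 5745, 4193, 4653 and 5979 in fasted worms and a log2 fold change of 0.94 ± 0.21 (SE, edgeR adjusted p = 0.046). Its fed libraries were close together apart from fed replicate 4. The third listed troponin T gene, *tnt-3*, overlapped between the groups and had a log2 fold change of 0.61 ± 0.24 (SE, edgeR adjusted p = 0.24).

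Among the inhibitory subunits, *unc-27* encodes a troponin I of body wall muscle. Its normalized counts were 3912, 4195, 4978 and 6522 in fed worms and 7684, 5585, 7935 and 8109.8 in fasted worms. Fasted replicate 2 fell below fed replicate 4, the other 3 fasted libraries were above every fed one, and the log2 fold change of 0.58 ± 0.18 (SE) had an edgeR adjusted p of 0.13, or 0.037 with the block. *tni-1* was lower in abundance, with normalized counts of 303, 158, 296 and 414 in fed worms and 425, 489, 685 and 717 in fasted worms. The groups were just apart, and its log2 fold change was 0.98 ± 0.28 (SE, edgeR adjusted p = 0.11, 0.028 with the block). *tni-3* had the widest relative spread among fasted libraries of the 26 genes, with normalized counts of 202, 145, 242 and 315 in fed worms and 454, 171, 645 and 436 in fasted worms. Fasted replicate 2 lay below 3 of the 4 fed libraries, and the log2 fold change of 0.92 ± 0.36 (SE) had an edgeR adjusted p of 0.24. *pat-10*, the troponin C of body wall muscle, had the highest level per length of all 26 genes, 505 ± 105 FPKM in fed and 742 ± 131 FPKM in fasted libraries (SD, n = 4). Fed replicate 4, at 10066 normalized counts, exceeded fasted replicate 2, at 9061, and the log2 fold change was 0.57 ± 0.17 (SE, edgeR adjusted p = 0.13, 0.038 with the block).

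Of the giant and Ig-domain proteins, which include twitchin, titin, obscurin and kettin relatives, 1 of 5 was listed, *dim-1*. The product of *dim-1* (chromosome X, bases 8050470 to 8058220) carries Ig domains and sits near the dense bodies. It had the next largest log2 fold change of the 26 genes, 1.32 ± 0.20 (SE, edgeR adjusted p = 0.0094), on normalized counts of 1082, 987, 1168 and 1864 in fed worms and 3378, 2602, 3141 and 3622 in fasted worms. All fasted libraries were above all fed ones. The other 4 genes of this class, *unc-22*, *unc-89*, *ttn-1* and *ketn-1*, were not listed.

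The attachment proteins link the filaments to the membrane and matrix. Of 8 given, 5 were listed and 0 were called by edgeR (all 5 had an unadjusted p under 0.05, 3 passed with the block and 3 by DESeq2). *unc-52*, which encodes perlecan of the basement membrane, had normalized counts of 1066, 718, 794 and 1519 in fed worms and 2474, 1754, 1435 and 2810.3 in fasted worms. Fasted replicate 3 lay just below fed replicate 4, and the log2 fold change was 1.05 ± 0.27 (SE, edgeR adjusted p = 0.075, 0.0041 with the block). *alp-1*, the Enigma family gene, was the 1 attachment gene whose groups did not overlap, with normalized counts of 549, 687, 772 and 809 in fed worms and 1079.7, 925, 1107 and 1275 in fasted worms and a log2 fold change of 0.64 ± 0.15 (SE, edgeR adjusted p = 0.059, 0.028 with the block). For *mlp-1*, a muscle LIM protein gene, the log2 fold change was 0.73 ± 0.22 (SE, edgeR adjusted p = 0.14, 0.044 with the block). *atn-1*, which encodes alpha-actinin of the dense bodies, had normalized counts of 1023, 1213, 986 and 1279 in fed worms and 2061, 1452, 1151 and 1987 in fasted worms. Fasted replicate 3 lay among the fed libraries, and its log2 fold change was 0.56 ± 0.19 (SE, edgeR adjusted p = 0.17, 0.084 with the block). The smallest log2 fold change of the 26 belonged to *unc-97*, a LIM-domain gene of the PINCH family, at 0.39 ± 0.17 (SE, edgeR adjusted p = 0.30, 0.14 with the block).

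**Figure D2:**
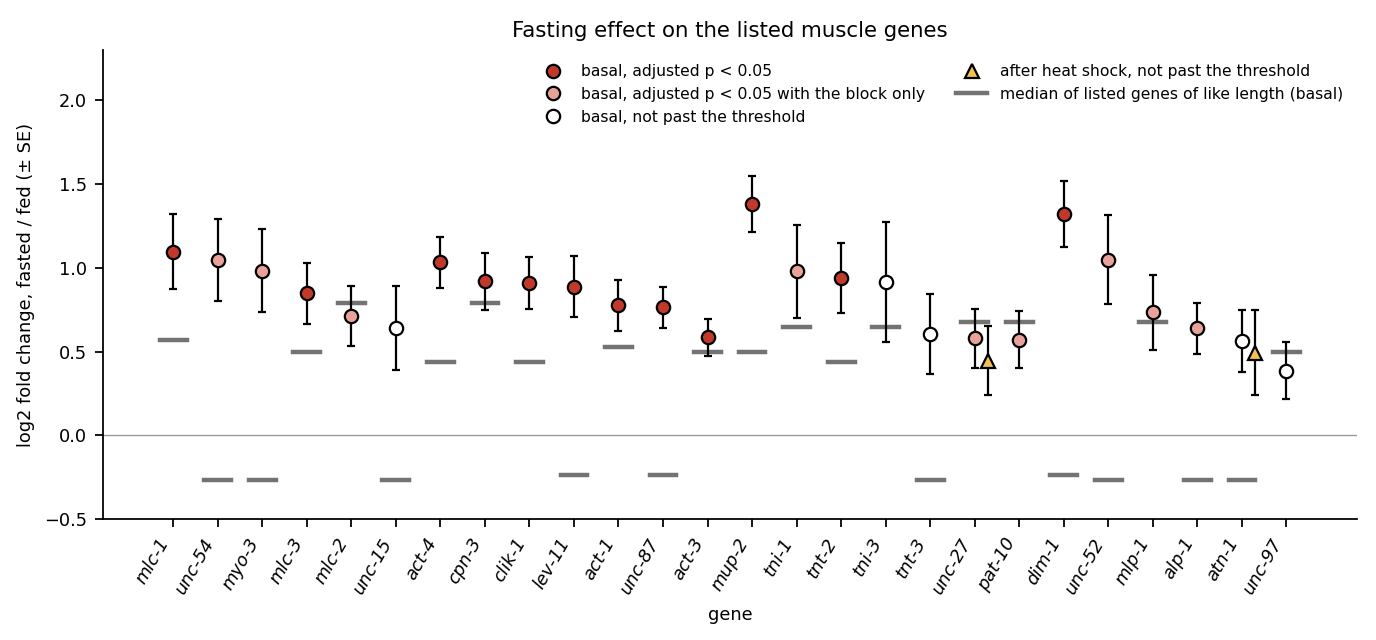
Log2 fold change of fasted over fed worms (y axis, bars are standard errors) for the 26 muscle genes (x axis) by role. Filled circles passed an adjusted p of 0.05 by edgeR, pale circles passed with the replicate block only, and open circles passed neither. Triangles are the 2 genes listed after heat shock, and grey bars are the median of listed genes of like length. All 26 circles lie above 0, from 0.39 for *unc-97* to 1.38 for *mup-2*.

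Libraries shifted many of these genes together. Fed replicate 4 was the highest fed library for all 26, with a median deviation of 0.51 on the log2 scale from the mean of the fed libraries. Among fasted libraries, replicate 2 was lowest for 16 genes and replicate 4 highest for 14. Summed over the 26 genes, their share of library reads was 0.375%, 0.374%, 0.370% and 0.554% in the fed libraries and 0.803%, 0.621%, 0.764% and 0.808% in the fasted ones. The mean was 0.418% ± 0.0904 in fed and 0.749% ± 0.0877 in fasted libraries (SD, n = 4), and no fasted library reached down to fed replicate 4. Without fed replicate 4, the median of the 26 log2 fold changes was 1.04. Thin filament genes took the largest part of the reads, 0.165% ± 0.0273 in fed and 0.300% ± 0.0301 in fasted libraries, followed by thick filament genes, 0.132% ± 0.0374 in fed and 0.241% ± 0.0469 in fasted libraries (SD, n = 4).

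**Figure D3:**
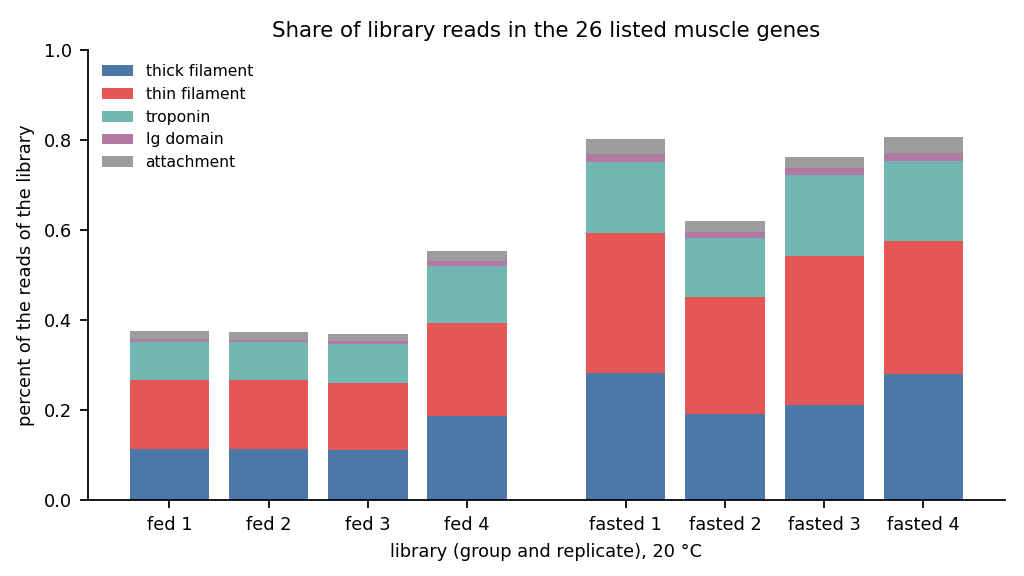
Share of the reads of each 20°C library (y axis, percent) in the 26 listed muscle genes, stacked by role, for fed and fasted replicates 1 to 4 (x axis). Fed replicates 1 to 3 sit between 0.370% and 0.375%, fed replicate 4 reaches 0.554%, and the fasted libraries run from 0.621% to 0.808%.

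Gene length moved with the libraries too. Over the 26 genes, the deviation of fasted replicate 3 from the fasted mean fell with log2 length (Pearson's r = -0.74), as it did over 1887 listed genes with a mean of at least 50 counts (r = -0.60), while those of fasted replicates 1 and 4 rose with it over the 26 genes (r = 0.58 and 0.53). These values are across genes, which share libraries and are not replicates. In fasted replicate 3, *tni-3*, of 965 bases, lay above the fasted mean and the long *unc-15*, *unc-54* and *unc-52* lay below it. In all listed genes, the median log2 fold change went from 0.91 in the shortest of 10 equal classes of length to -0.26 in the longest. Over the 26 muscle genes, the log2 fold change correlated with log2 length at r = 0.14, and 22 were above the median of their own class. That count was partly set by direction. The medians of the 2 longest classes were below 0 (-0.24 and -0.26). The 3 and 7 muscle genes in them, all higher in fasted worms, exceeded these medians by sign alone. In the longest class, which holds 7 of them, 47.9% of listed genes were higher in fasted worms. The part of length and library in the changes was not tested.

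**Figure D4:**
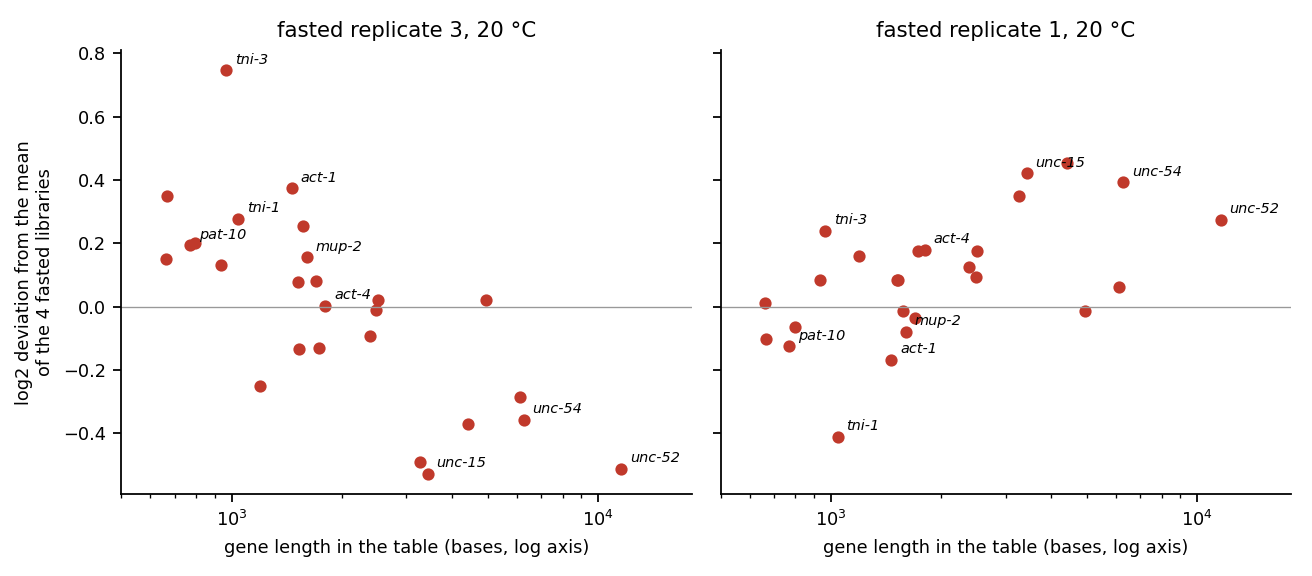
Deviation of fasted replicate 3 (left) and fasted replicate 1 (right) from the mean of the 4 fasted libraries, on the log2 scale (y axis), against gene length in bases on a log axis (x axis), for the 26 muscle genes. The points fall with length in replicate 3 (r = -0.74) and rise with it in replicate 1 (r = 0.58).

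Levels between genes were compared per length, as FPKM. In fed worms, means ran from 4.57 ± 1.51 FPKM for *unc-52* and 4.95 ± 1.60 FPKM for *myo-3* to 337 ± 77.0 FPKM for *mlc-2* and 505 ± 105 FPKM for *pat-10* (SD, n = 4). Ratios of 9 pairs of FPKM values, chosen after values were seen, describe how far partners within a filament moved apart. The ratio of *unc-54* to *unc-15*, myosin to paramyosin, was 0.890 ± 0.0492 in fed and 1.20 ± 0.10 in fasted libraries (SD, n = 4), without overlap (two-sided exact permutation p = 0.029, the smallest the design allows, and 0.13 adjusted over the 9). The ratio of *mup-2* to *unc-27*, troponin T to troponin I, was 0.254 ± 0.0419 in fed and 0.444 ± 0.0490 in fasted libraries, also without overlap (exact permutation p = 0.029, adjusted p = 0.13). 0 of the 9 ratios passed after adjustment. With 4 libraries in each group, a ratio at the smallest p could pass only if most of the 9 were there too. The adjusted result therefore does not show that partners stayed together. Because the pairs were chosen after values were seen, the unadjusted p-values describe them and are no evidence of a shift. For *unc-54* over *act-4*, myosin to actin, the ratio was 0.271 ± 0.0294 in fed and 0.276 ± 0.0555 in fasted libraries (exact permutation p = 0.97), and for *unc-54* over *myo-3* it was 15.995 ± 4.15 and 16.2 ± 2.68 (exact permutation p = 0.94).

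On the chromosomes, 10 of the 26 genes were on X, where 18.9% of the listed genes lie, 6 each on I and V, 2 on III and 1 each on II and IV. For 14 of the 26, the Ensembl annotation places a gene on the opposite strand over the same bases, and the library steps described do not mark strand, so reads of the 2 cannot be told apart there.

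Other genes of muscle and of actomyosin were taken from 10 lists of 110 genes in all. Under basal conditions 29 were listed, 4 were called higher (10 with the block, 11 by DESeq2) and 0 lower. For comparison, 17.5% of all genes were listed and 1.92% were called higher (3.69% with the block, 4.4% by DESeq2). Dense body and M-line genes had 8 of 23 listed, all higher, and 1 called (3 with the block, 3 by DESeq2): *unc-95*, a LIM-domain protein gene, from 133 ± 25.4 to 234 ± 23.2 (SD, n = 4) normalized counts (log2 fold change 0.82 ± 0.18 SE, edgeR adjusted p = 0.045). *unc-98* and *rsu-1* had log2 fold changes of 0.77 ± 0.22 (SE) and 0.40 ± 0.12 (SE, edgeR adjusted p = 0.12 and 0.14, or 0.042 and 0.082 with the block). Basement membrane genes had 6 of 15 listed, all higher, with 2 called (6 with the block, 6 by DESeq2). The 2 called by edgeR were *cle-1*, the collagen XVIII gene, from 455 ± 69.1 to 845 ± 129.8 (SD, n = 4) normalized counts (log2 fold change 0.89 ± 0.16 SE, edgeR adjusted p = 0.020), and *ost-1*, the SPARC gene, from 2699.7 ± 524 to 4287 ± 533 (SD, n = 4) (log2 fold change 0.67 ± 0.15 SE, edgeR adjusted p = 0.047). *epi-1*, a laminin gene, had a log2 fold change of 0.67 ± 0.18 (SE, edgeR adjusted p = 0.095, 0.028 with the block).

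Of the genes for calcium handling and excitation, 6 of 15 were listed, all higher, and 0 were called by edgeR, with the block or by DESeq2 (all 6 had an unadjusted p under 0.05). Potassium channel genes *slo-2*, *shk-1* and *twk-18* had log2 fold changes of 0.67 ± 0.21 (SE), 0.73 ± 0.24 (SE) and 0.72 ± 0.26 (SE, edgeR adjusted p = 0.15, 0.17 and 0.20). The dystrophin complex had 2 of 10 listed, the sarcoglycan genes *sgca-1* and *sgcb-1*, at 0.69 ± 0.22 (SE) and 0.78 ± 0.26 (SE, edgeR adjusted p = 0.15 and 0.17). Genes for myosin folding had 2 of 6 listed and 0 called (1 by DESeq2), *unc-23* and *hsp-25*, with log2 fold changes of 0.57 ± 0.18 (SE) and 0.42 ± 0.15 (SE, edgeR adjusted p = 0.15 and 0.19). The lists for receptors of the neuromuscular junction (11 genes), arginine kinases (4), regulators of muscle fate (5) and pharyngeal muscle (5) had 0 listed.

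Actomyosin genes of other tissues did not all go one way: of 16, 3 were listed as higher and 2, *cyk-1* and *hum-2*, as lower, and 1 of the 3, *pfn-2*, turned to -0.0425 with DESeq2 size factors over the listed genes. *act-5*, the actin of intestinal microvilli, was the 1 called, from 4460.2 ± 576 to 9085 ± 830.1 (SD, n = 4) normalized counts (log2 fold change 1.03 ± 0.12 SE, edgeR adjusted p = 0.0026). Being a near copy, *act-5* can also share reads with the muscle actins. The profilin genes *pfn-2* and *pfn-3* had log2 fold changes of 0.34 ± 0.12 (SE) and 0.63 ± 0.23 (SE, edgeR adjusted p = 0.18 and 0.21).

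Some markers of other tissues also differed between the same groups. Of all genes, 17.5% were listed, and edgeR called 1.92% higher and 0.534% lower. DESeq2 called 4.4% higher and 1.43% lower. Vitellogenins, yolk protein genes of the adult intestine, had 4 of 6 listed and all 4 called lower, with summed normalized counts of 562025 to 687395 in fed and 283397 to 335909 in fasted libraries. Hypodermis had 5 of 16 listed. Of these, 3 were higher and called by edgeR and by DESeq2, and 2, *dpy-7* and *wrt-2*, were lower and called by neither (summed 2958 to 9198 in fed and 17677 to 29973 in fasted libraries). Most of that sum was held by 2 cuticle collagen genes, *col-19*, at means of 2865 in fed and 9273 in fasted libraries, and *col-93*, at 2524 and 15174. Intestine without yolk genes had 7 of 12 listed (summed 4299 to 6935 and 6615 to 9819). Of these, 4 were higher with 2 called (3 by DESeq2), and 3 were lower with 2 called (3 by DESeq2). Neurons had 6 of 18 listed, all higher and 0 called by edgeR but 2 by DESeq2 (summed 1380 to 2286 and 2133 to 3811). Oocyte and germline genes had 3 of 20 listed, all lower and 0 called by either (summed 84191 to 102939 and 63989 to 86895), sperm 1 of 14, *spe-11*, at 0 in at least 1 library as were *mtl-1* and *wrt-2*, and pharyngeal glands 3 of 6, 2 higher and 1 lower, with 0 called by either (summed 126 to 329 and 198 to 681). Their part in the levels of the muscle genes was not tested.

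After heat shock, *unc-27* and *atn-1* were the 2 muscle genes listed, of 38, where 9.06% of 15456 genes were listed (4.88% listed and higher in fasted worms). Neither was called, and 0 genes of any kind were called by edgeR (613 genes had an unadjusted p under 0.05 and were higher in fasted worms, 3.97%, and 519 were lower, 3.36%, neither of the 2 among them), whereas DESeq2 called 29 higher and 22 lower, again with 0 members. Normalized counts of *unc-27* were 7632, 4393, 3839.9 and 5241 in fed worms and 7987, 8544, 6535 and 5683 in fasted worms. Fed replicate 1 lay among the fasted libraries and fasted replicate 4 within the fed range. The log2 fold change was 0.45 ± 0.21 (SE, edgeR adjusted p = 0.73), and between 0.32 and 0.68 when single libraries were left out. For *atn-1*, they were 2814, 1733, 1645 and 1239 in fed worms and 2948, 3288, 2511 and 1727 in fasted worms. Fed replicate 1 was above fasted replicates 3 and 4, and the log2 fold change of 0.49 ± 0.25 (SE) had an edgeR adjusted p of 0.90. The groups overlapped for both genes, whereas 17.3% of the genes listed after heat shock (250) had every fasted library above every fed one. That share includes genes lower in fasted worms, which cannot meet this, so it is not a like comparison for these 2 muscle genes. Of the listed genes kept in the adjustment, 754 were higher. Without fed replicate 1 the median of the pair was 0.72 against 0.47 with it. Of the 110 genes in the other lists, 7 were listed after heat shock, 3 higher and 4 lower, and 0 were called by edgeR or DESeq2. Higher in fasted worms were *hsp-90*, which encodes the chaperone that works with the myosin chaperone UNC-45, at a log2 fold change of 0.27 ± 0.13 (SE), *hsp-25* of the same list at 0.43 ± 0.14 (SE), and *cas-1* of the dense body and M-line list at 0.27 ± 0.09 (SE, edgeR adjusted p = 0.78, 0.56 and 0.56). Lower were *ufd-2* for myosin folding at -0.21 ± 0.07 (SE), *dgn-1*, a dystroglycan gene, at -0.49 ± 0.20 (SE), *sdn-1*, the syndecan gene, at -0.19 ± 0.08 (SE), and *hum-2*, an unconventional myosin gene, at -0.25 ± 0.07 (SE, edgeR adjusted p = 0.56, 0.66, 0.69 and 0.56).

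Genes listed after heat shock also differed in direction by length: 59.0% of the length class that holds *unc-27* were higher in fasted worms, and 17.9% of the longest class, which holds *atn-1*. In FPKM, which can be set side by side across temperatures but was normalized separately, *unc-27* averaged 271 ± 58.0 in fed and 401 ± 66.4 in fasted worms at 20°C and 296 ± 82.3 and 401 ± 69.5 after heat shock (SD, n = 4). *atn-1* averaged 17.9 ± 2.146 and 25.97 ± 6.28 at 20°C and 29.9 ± 9.72 and 41.9 ± 10.4 after heat shock (SD, n = 4). Among the 410 genes in both tables, 14 differed in the effect of fasting between temperatures by edgeR's interaction test, and neither muscle gene was among them. The difference of the log2 fold changes, heat shock minus basal, was -0.13 for *unc-27* (95% interval -0.78 to 0.51) and -0.07 for *atn-1* (95% interval -0.83 to 0.69), both with an edgeR adjusted p of 0.999. The other 24 genes were listed under basal conditions and not after heat shock, and whether their response differed between temperatures was not tested.

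**Figure D5:**
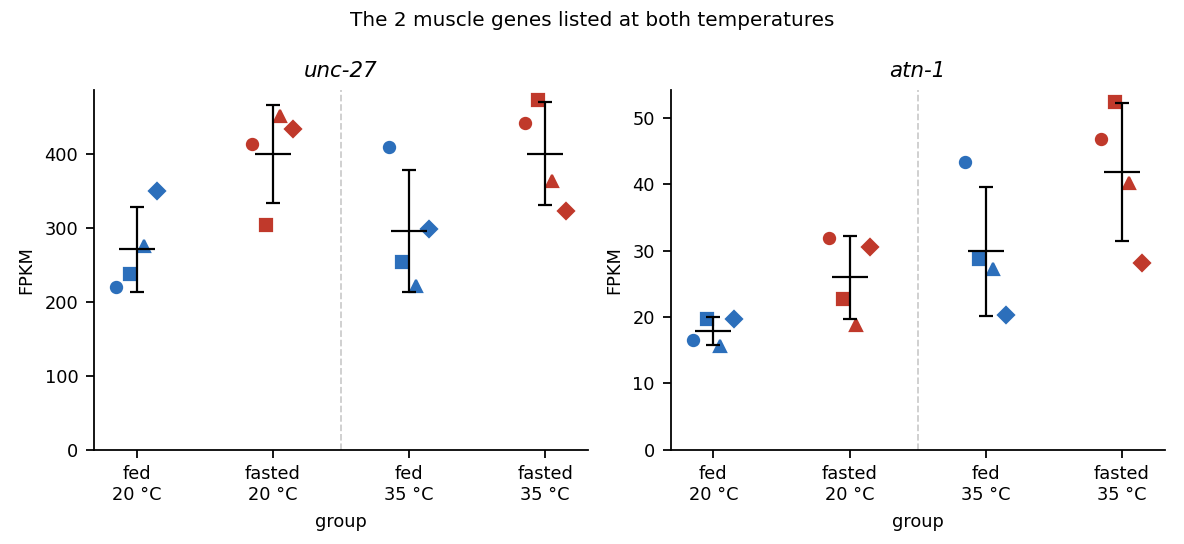
FPKM (y axis) of *unc-27* and *atn-1* in each library of the 4 groups (x axis), with the mean and SD of 4 libraries in black and marker shapes for replicates 1 to 4 (circle, square, triangle, diamond). The dashed line separates the tables, which were normalized separately. After heat shock fed replicate 1 (circle) lies among the fasted libraries for both genes.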

How the data were processed

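The data are RNA sequencing of whole *C. elegans* in 16 libraries, 4 in each of 4 groups set by the sample labels. Per the labels and the study's methods, the authors used HISAT2 2.0.5 to align the paired-end reads (WBcel235) and featureCounts 1.5.0-p3 to make raw counts per gene. Normalized counts (the signal values) are the authors' counts divided by a DESeq2 size factor for each library, and the FPKM values were deposited by the authors from counts, gene length and library reads. The authors' log2 fold changes and their p-values, raw and adjusted, from DESeq2 (version not given in the sources used here) were deposited too and were not used as results. They served to find how many genes had been adjusted over (14982 and 15456) and which listed genes (47 and 41) carry an adjusted p of 1, which were left out of the adjustment here. No gene with a p of 0.05 or more before adjustment is in either table.

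Library reads were recovered from count, FPKM and length. Raw counts of all listed genes were tested with edgeR 4.0.16 (quasi-likelihood, R 4.3.3), scaled by these reads and the authors' size factors, within each temperature. The Benjamini-Hochberg adjustment ran over the same number of genes as the authors' (a p of 1 for each unlisted gene), and genes were called at an adjusted p under 0.05. The interaction of fasting and heat was tested over the 410 genes in both tables. Ratios were compared by two-sided exact permutation tests (70 splits) in Python 3.11.15 with scipy 1.17.1. As alternatives, the fits were repeated with limma 3.58.1 on log2(FPKM + 0.1) or log2(FPKM + 1), DESeq2 1.42.0, other scalings, a mean of at least 10 counts, an adjustment over listed genes, a fold of at least 1.5, the replicate number as a block, and each library left out in turn. The tests were tested on simulated data. For edgeR these were counts of the listed genes alone, adjusted over those genes, with no selection by p. They therefore do not vouch for the calls given here.

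Under basal conditions, libraries with the same number deviated together from their group means (r = 0.17, 0.21, 0.41 and 0.13 over 1887 genes with a mean of at least 50 counts). All exceeded 0.1, so the numbers were taken as pairs. This pairing comes from the data, not the design, and fed replicate 1 correlated best with fasted replicate 2 (0.44). After heat shock the values were 0.23, 0.07, 0.18 and 0.46 over 995 genes, and the numbers were not taken as pairs. Named are every listed member and, of each other muscle list, up to 3 listed genes with the smallest p. The genes *spe-11*, *mtl-1*, *wrt-2*, *dpy-7*, *col-19*, *col-93* and, at 20°C, *cyk-1* and *hum-2* were chosen after their values were seen. The members and all lists were chosen with earlier results of these data known, so no list was tested. Gene names came from RefSeq (2638 basal and 1418 heat shock genes) and Ensembl (0 and 2), and 28 and 22 genes had none. No protein or promoter sequences were used here.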

Additional observations from a re-analysis of the deposited data

Results flagged for a closer look

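In 102 groups of 4 libraries examined (26 muscle genes under basal conditions, the 2 listed after heat shock, and the other named genes), 8 held a library whose distance from its nearest neighbour, as a share of the range of the group, was above Dixon's critical value for 4 values. Chance gives about 1 in 20 such groups. In 6 of the 8 the outlying library was fed replicate 4, high: *unc-15* (share 0.929, at 8441 normalized counts), *tnt-2* (0.874, at 4011), *act-4* (0.871, at 12898), *clik-1* (0.866, at 5103), *pat-10* (0.856, at 10066) and *mlc-2* (0.855, at 5939.7). These genes share that library and are not independent. In fasted libraries, replicate 3 was high for *act-1* (0.850, at 6426) and replicate 2 low for *unc-27* (0.831, at 5585).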

How the results depend on the processing

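All 26 muscle genes were higher in fasted worms under basal conditions in all 18 alternatives. Genes were listed by a p on these same libraries, so this direction could hardly change and is no separate support. The number called, 12, was 25 when adjusted over the listed genes only, 19 by DESeq2, 21 with the replicate block, 7 with TMM, 4 with DESeq2 size factors over the listed genes, 5 by limma on log2(FPKM + 0.1), and 3 to 20 when single libraries were left out. Adjusted over the listed genes only, 1406 genes of any kind were called higher and 726 lower, of 2666 listed. Listing already required a p under 0.05, so most listed genes pass there and the 25 says little about muscle genes. That limma fit called 251 genes of any kind higher and 67 lower. Of the 110 genes in the other lists, which include actomyosin genes of other tissues, 4 were called, *act-5* among them. The count was 28 when adjusted over the listed genes only, 11 by DESeq2 and 10 with the replicate block. It was 2 with TMM, 2 with those DESeq2 size factors, and 1 to 7 when single libraries were left out. Scaling by TMM or by those DESeq2 size factors moved the median of all listed genes by -0.19 and -0.39 on the log2 scale and the share of calls that were higher from 78.3% to 50.5% and 19.2%. The median of the muscle genes was 0.49 with the latter. It lay 0.30 above that of all listed genes in the main fit and 0.31 above it with either scaling. A scaling shifts all genes nearly alike, so this gap could hardly change. *pfn-2* turned to -0.0425 with DESeq2 size factors. The causes were not tested. The block added no call after heat shock, where the muscle genes called and those that differed between temperatures were 0 in each alternative run. Genes outside the tables limit every count here. The planned description of protein and promoter sequences was not run.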
